A study of Mus musculus with 12 samples.

Results

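Chemokine transcripts of mouse embryonic fibroblasts (MEFs) were followed across genotype and DNA damage. The group comprised 10 genes, Ccl2, Ccl7, Ccl5, Ccl20, Cxcl1, Cxcl2, Cxcl5, Cxcl10, Cxcl12 and Cx3cl1, of 24421 genes in the count table. These genes were chosen from values measured in the same libraries, with their levels and differences between groups already known, so their values are given as a description without a test. Of the 10 genes, 9 passed edgeR's filter on low counts and Cxcl2 did not.

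RNA-Seq was performed on 12 libraries, 3 in each of 4 groups. Null MEFs, the name the sample labels give the control genotype, and MEFs with both Tfeb and Tfe3 inactivated by CRISPR editing (DKO MEFs) were studied as controls or after 8 hr in 100 µM etoposide, a topoisomerase II poison that causes double-strand breaks. The labels describe the controls as untreated, whereas the methods of the study describe a DMSO vehicle. Both genotypes were immortalized lines with 1 line each, so genotype and line cannot be told apart. Nothing in the sources states that the 3 libraries of a group came from separate cultures, and the p-values may therefore measure technical spread only.

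Chemokines are small secreted proteins that bind receptors on leukocytes and direct their migration. Their names follow the spacing of the first conserved cysteines, as in the CC, CXC and CX3C subfamilies. Fibroblasts make several of them, and many chemokine genes are induced by NF-kB or interferon signaling.

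The libraries held 66956083 to 83970210 counts on genes in Null control MEFs and 66749645 to 104120871 in DKO control MEFs. After etoposide they ranged from 63286195 to 76125320 in Null MEFs and from 45577023 to 94388705 in DKO MEFs. The share of reads on no feature also differed between groups without overlap, at 22.5 to 24.2% in Null control, 20.2 to 21.1% in DKO control, 25.1 to 27.3% in Null etoposide and 21.2 to 22.3% in DKO etoposide libraries, and its part in the results was not tested. Levels are given in CPM, relative to library sizes scaled by edgeR's TMM method. Log2 fold changes come from 1 edgeR quasi-likelihood model of the 12 libraries. The model gives no standard errors, so these were derived as the absolute log2 fold change over the square root of the F statistic of its test.

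The targeted genes were examined first. Tfeb was measured at 38.9, 39.2 and 42.1 CPM in the Null control libraries and at 4.60, 6.09 and 4.68 CPM in the DKO control libraries. With etoposide its levels were 11.4, 10.2 and 10.4 CPM in Null MEFs and 1.92, 1.61 and 2.20 CPM in DKO MEFs. Every DKO library lay below every Null library of the same treatment, with log2 fold changes of -2.95 (standard error 0.10) and -2.46 (standard error 0.12), and Benjamini-Hochberg adjusted p-values of 1.76e-13 and 9.94e-12 in the quasi-likelihood test of edgeR. Tfe3 was measured at 115, 109.9 and 114 CPM in the Null control libraries and at 94.1, 93.1 and 91.0 CPM in the DKO control libraries. After etoposide Tfe3 was measured at 68.5, 69.6 and 68.1 CPM in Null MEFs and at 70.7, 71.2 and 63.4 CPM in DKO MEFs. Tfe3 RNA was thus still present in the DKO MEFs, below the Null libraries in controls with a log2 fold change of -0.29 (standard error 0.04). After etoposide the genotypes overlapped, with a log2 fold change of -0.01 (standard error 0.04) that was 0.03 without DKO etoposide replicate 3, and the Benjamini-Hochberg adjusted p-values of edgeR's quasi-likelihood test were 1.06e-05 and 0.887.

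The cell type was checked against marker genes. All 10 fibroblast markers passed the expression filter, and Vim, the most abundant over the 12 libraries, was at 790.1 to 2752 CPM. Their summed level was 5460.1 to 5651 CPM in Null control, 9067 to 9438 CPM in DKO control, 2930.4 to 2953 CPM in Null etoposide and 3515 to 3715 CPM in DKO etoposide libraries. Dcn and Lum, markers of mature fibroblasts, were low, and Lum did not exceed 0.933 CPM in any library. Thy1 was at 1.88 to 4.50 CPM in the Null libraries and at 0.0168 to 0.287 CPM in the DKO libraries, unlike the summed level, which was higher in DKO MEFs. Vim was also lower in DKO MEFs after etoposide, at 790.1 to 807 against 1609 to 1643 CPM, but higher among controls. Of 12 immune cell markers 5 passed the filter. The summed level of all 12 was 1.75 to 2.13 CPM in Null control and 1.71 to 2.81 CPM in DKO control libraries. After etoposide it was 13.9 to 15.0 CPM in Null and 4.14 to 5.13 CPM in DKO libraries. The most abundant of these markers was Cd68, which is not restricted to leukocytes, at 1.20 to 12.5 CPM. Ncr1 and S100a9 had at most 3 counts in every library, Cd3e had no count in 11 libraries, and the leukocyte marker Ptprc did not exceed 0.540 CPM. Of 7 endothelial markers 5 passed the filter. All 7 summed to 0.0652 to 0.270 CPM in the control libraries of both genotypes. After etoposide the sums were 4.73 to 5.35 CPM in Null and 1.5 to 2.02 CPM in DKO libraries. Vwf had the highest mean of these markers over the 12 libraries, at 0.0 to 2.40 CPM. The 6 epithelial markers summed to 2.26 to 2.87 CPM in Null control, 5.05 to 5.94 CPM in DKO control, 3.32 to 4.10 CPM in Null etoposide and 2.02 to 2.57 CPM in DKO etoposide libraries. Krt8 had the highest mean of them over the 12 libraries, and Cdh1 in each etoposide group. The part of these markers in the chemokine differences was not tested, and bulk RNA cannot tell fewer cells of a type from less RNA per cell.

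Ccl2, which attracts monocytes, lies at chromosome 11, 82035571 to 82037453 (GENCODE M21 on GRCm38), beside Ccl7. Ccl2 was measured at 454, 415 and 398 CPM in Null control and 399, 401 and 396 CPM in DKO control libraries. Etoposide-treated libraries had 164, 183 and 189 CPM in Null MEFs and 44.5, 44.3 and 43.3 CPM in DKO MEFs. The control genotypes overlapped, both etoposide groups lay below them, and the DKO etoposide libraries were the lowest. The log2 fold change with etoposide was -1.24 (standard error 0.05) in Null MEFs and -3.18 (standard error 0.06) in DKO MEFs.

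Ccl7, a monocyte chemoattractant that shares receptors with Ccl2, was measured at 44.9, 44.4 and 40.5 CPM in Null control and 74.2, 72.5 and 67.7 CPM in DKO control libraries. Its levels after etoposide were 15.3, 16.1 and 18.2 CPM in Null MEFs and 4.92, 6.60 and 4.87 CPM in DKO MEFs. The DKO libraries lay above the Null libraries without etoposide and below them after it. The log2 fold change of DKO against Null MEFs was 0.73 (standard error 0.08) in controls and -1.59 (standard error 0.10) after etoposide. With etoposide the log2 fold change was -1.39 (standard error 0.08) in Null MEFs and -3.71 (standard error 0.10) in DKO MEFs. Among the neighbors of this pair on chromosome 11, Ccl11, Ccl12, Ccl8 and Ccl1 had at most 13, 18, 2 and 8 counts in any library.

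Ccl5, a chemoattractant for T cells and monocytes, was measured at 6.59, 6.65 and 5.11 CPM in Null control and 2.32, 3.52 and 2.97 CPM in DKO control libraries. With etoposide the libraries gave 9.70, 9.93 and 8.15 CPM in Null MEFs and 5.34, 4.66 and 3.40 CPM in DKO MEFs. The DKO libraries lay below the Null libraries in both treatments. The etoposide libraries lay above the controls in Null MEFs, whereas in DKO MEFs the lowest etoposide library overlapped the controls. The log2 fold changes with etoposide were 0.60 (standard error 0.16) in Null MEFs and 0.58 (standard error 0.18) in DKO MEFs.

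Ccl20, the ligand of Ccr6, showed the widest range between genotypes of the 9 genes kept by the filter. It was measured at 22.8, 19.3 and 21.3 CPM in Null control and 164, 163 and 174 CPM in DKO control libraries. Etoposide libraries gave 3.42, 3.03 and 3.33 CPM in Null MEFs and 45.6, 48.2 and 47.6 CPM in DKO MEFs. No group overlapped another, and the DKO etoposide libraries lay above the Null control libraries. DKO against Null MEFs gave a log2 fold change of 2.98 (standard error 0.05) in controls and 3.86 (standard error 0.06) after etoposide.

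Cxcl1, Cxcl2 and Cxcl5 attract neutrophils through Cxcr2 and lie in 1 cluster on chromosome 5. Cxcl1 (90891241 to 90893115) was measured at 48.3, 43.0 and 45.3 CPM in Null control and 40.7, 39.9 and 38.9 CPM in DKO control libraries. In etoposide libraries its levels were 64.5, 71.3 and 69.5 CPM in Null MEFs and 13.4, 12.1 and 13 CPM in DKO MEFs. All etoposide libraries lay above the controls in Null MEFs and below them in DKO MEFs, so Cxcl1 was the 1 member whose libraries separated in opposite directions. The log2 fold changes with etoposide were 0.59 (standard error 0.05) and -1.63 (standard error 0.06), and that of DKO against Null MEFs after etoposide was -2.41 (standard error 0.06).

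Cxcl2 (90903871 to 90905938), the next chemokine gene on the chromosome, was near the limit of detection. It had 4, 1 and 5 counts in Null control, 2, 3 and 2 counts in DKO control, 4, 10 and 4 counts in Null etoposide and 0, 1 and 0 counts in DKO etoposide libraries. The DKO etoposide libraries with 0 counts allow up to 3 counts, or 0.0607 and 0.0298 CPM, for counting error only. No fold change is given for Cxcl2.

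Cxcl5 was measured at 46.9, 44.5 and 42.8 CPM in Null control and 86.1, 85.3 and 88.1 CPM in DKO control libraries. The etoposide libraries gave 19.9, 20 and 20.5 CPM in Null MEFs and 17.0, 18.4 and 20.1 CPM in DKO MEFs. The DKO libraries were the higher ones among controls, and the genotypes overlapped after etoposide. Etoposide gave a log2 fold change of -1.15 (standard error 0.05) in Null MEFs and -2.22 (standard error 0.05) in DKO MEFs.

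Cxcl10, an interferon-inducible ligand of Cxcr3, was measured at 57.4, 50.5 and 53.3 CPM in Null control and 85.8, 79.7 and 88.7 CPM in DKO control libraries. Its etoposide levels were 52.8, 59.7 and 69.3 CPM in Null MEFs and 75.0, 79.8 and 82.2 CPM in DKO MEFs. Etoposide and control libraries overlapped in both genotypes, and the DKO libraries lay above the Null libraries in both treatments. The log2 fold change of DKO against Null MEFs was 0.65 (standard error 0.08) in controls and 0.39 (standard error 0.08) after etoposide. With etoposide the log2 fold change was 0.17 (standard error 0.08) in Null MEFs and -0.10 (standard error 0.07) in DKO MEFs, and with library size alone in place of TMM these were 0.34 and 0.17. The value in Null MEFs was 0.06 without Null etoposide replicate 3, and that in DKO MEFs was -0.17 without DKO control replicate 2. The exons of Cxcl10 overlap those of Art3 on the opposite strand, and the strand setting of the counting is not given in the sources used here, so reads of these genes may not have been separated.

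Cxcl12, the ligand of Cxcr4 and of the scavenging receptor Ackr3, was measured at 26.3, 28.1 and 25.5 CPM in Null control and 115, 116 and 104 CPM in DKO control libraries. Its etoposide libraries gave 16.6, 16.6 and 16.2 CPM in Null MEFs and 39.7, 40.9 and 38.0 CPM in DKO MEFs. No group overlapped another, and the DKO etoposide libraries lay above the Null controls. DKO against Null MEFs gave a log2 fold change of 2.07 (standard error 0.05) in controls and 1.26 (standard error 0.05) after etoposide.

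Cx3cl1, a chemokine made as a membrane-anchored protein, was measured at 232, 212 and 223 CPM in Null control and 269, 267 and 283 CPM in DKO control libraries. In the etoposide libraries it was measured at 193, 188 and 193 CPM in Null MEFs and at 86.1, 82.0 and 79.8 CPM in DKO MEFs. The 4 groups did not overlap, and the DKO libraries were the highest among controls and the lowest after etoposide. The log2 fold change with etoposide was -0.21 (standard error 0.04) in Null MEFs and -1.72 (standard error 0.04) in DKO MEFs, and the former was -0.05 with library size alone.

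**Figure D1:**
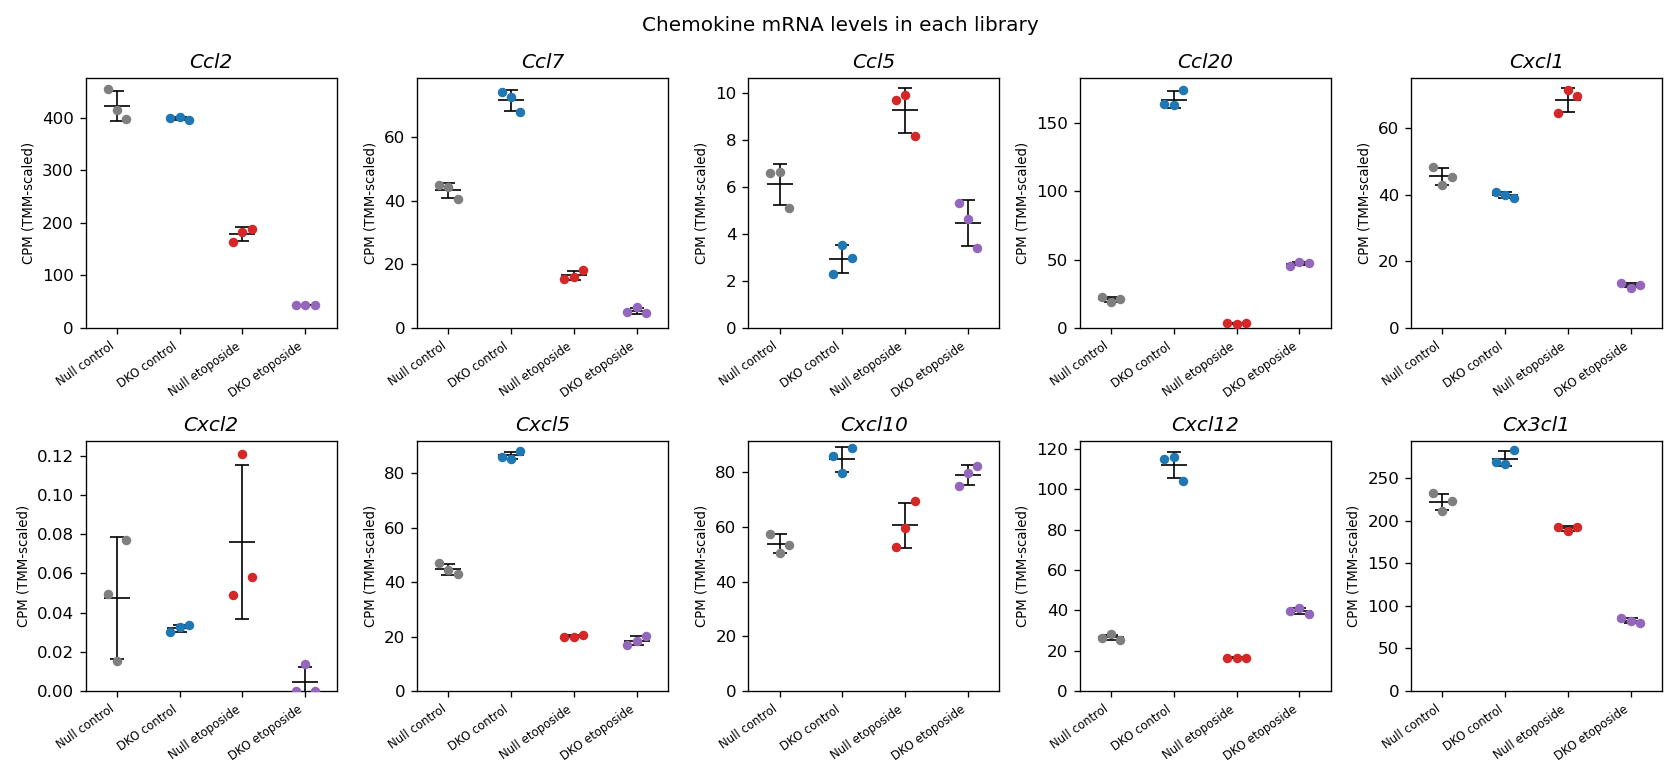
TMM-scaled CPM of each chemokine gene in the 12 libraries, with 1 point per library and bars for the mean and SD of the 3 libraries of a group. The vertical axes are linear, start at 0 and differ between genes, and Cxcl1 is highest in Null etoposide and lowest in DKO etoposide libraries.

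Across the genes, etoposide libraries lay wholly above the controls for 2 and wholly below them for 6 of the 9 genes in Null MEFs. Of all genes tested, the libraries did not overlap for 80.2% in that comparison, and 78.4% were called at an adjusted p under 0.05. In DKO MEFs they lay below the controls for 7 genes and above them for 0, while 76.1% of all genes did not overlap and 75.3% were called. DKO libraries lay above Null libraries for 6 and below for 2 genes among controls, with 70.5% of all genes not overlapping and 67.4% called. After etoposide they lay above for 3 and below for 5 genes, with 74.7% of all genes not overlapping and 72.0% called. The members were chosen on these contrasts, so nothing is read from their counts beside these percentages. Comparisons that share a group of libraries are not independent.

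**Figure D2:**
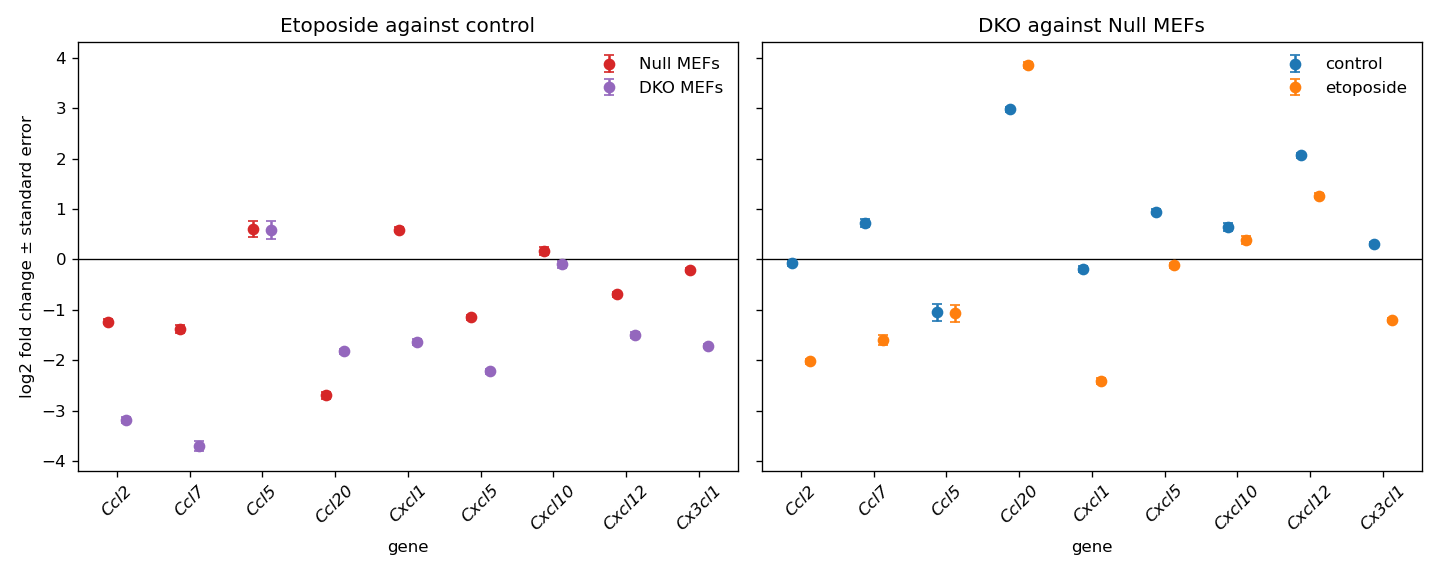
Log2 fold changes of the 9 chemokine genes kept by the filter, with standard errors derived from the edgeR test, for etoposide against control (left) and DKO against Null MEFs (right). In the left panel Ccl7 in DKO MEFs has the lowest value, -3.71, and in the right panel Ccl20 after etoposide has the highest, 3.86.

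The difference between the etoposide responses of the genotypes (the interaction, DKO minus Null) ranged from -2.32 (standard error 0.13) for Ccl7 to 0.87 (standard error 0.08) for Ccl20 on the log2 scale. It was -2.22 (standard error 0.07) for Cxcl1, -1.94 (standard error 0.07) for Ccl2 and -1.51 (standard error 0.06) for Cx3cl1. The values were nearer to 0 for Cxcl5 at -1.07 (standard error 0.07), Cxcl12 at -0.81 (standard error 0.07) and Cxcl10 at -0.27 (standard error 0.11), and Ccl5 had -0.02 (standard error 0.24). That of Cxcl10 was -0.16 without Null etoposide replicate 3 and also -0.16 with library size alone. Of all genes tested, 54.6% were called for the interaction, and again nothing is read from the members beside it.

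The summed level of the 10 genes was 855 to 939 CPM in Null control, 1228 to 1243 CPM in DKO control, 539 to 587 CPM in Null etoposide and 332 to 337 CPM in DKO etoposide libraries. Per kilobase of exon, Ccl2 had the highest level in each group, at 371 ± 25.3 CPM per kilobase in Null control, 350.1 ± 2.30 in DKO control, 157 ± 11.6 in Null etoposide and 38.7 ± 0.568 in DKO etoposide libraries (SD, n = 3 each). In Null control libraries the level per kilobase of Cx3cl1 came next (56.5 ± 2.49, SD, n = 3) and overlapped that of Ccl7 (54.0 ± 3.00, SD, n = 3). Cxcl1, Cxcl5 and Cxcl10 followed at 24.3, 24.0 and 23.9 CPM per kilobase and overlapped one another, then Ccl20, Ccl5, Cxcl12 and Cxcl2. In DKO control libraries Ccl20 took the second place at 118 ± 4.22 CPM per kilobase (SD, n = 3), and no neighbors in the order overlapped. In Null etoposide libraries the order was Ccl2, Cx3cl1, Cxcl1, Cxcl10, Ccl7, Cxcl5, Ccl5, Ccl20, Cxcl12 and Cxcl2, again without overlap of neighbors. In DKO etoposide libraries Ccl2 was followed by Cxcl10 at 35.1 ± 1.64 and Ccl20 at 33.2 ± 0.961 CPM per kilobase (SD, n = 3 each), which overlapped. Below them were Cx3cl1, Cxcl5, Cxcl1, Ccl7, Cxcl12, Ccl5 and Cxcl2, and Cxcl1 overlapped Ccl7 as Cxcl12 did Ccl5.

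**Figure D3:**
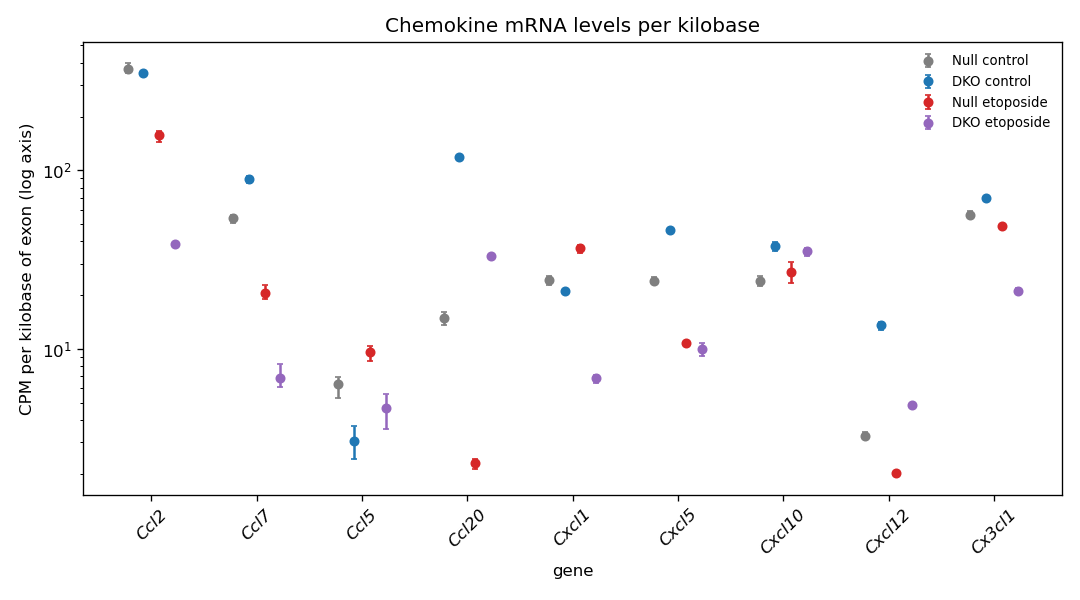
Mean CPM per kilobase of exon of 9 chemokine genes in the 4 groups on a log axis, with bars from the lowest to the highest of 3 libraries. Cxcl2 is left out because of its low counts, and Ccl2 has the highest level in every group.

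Promoter sequences were read for 6 of the 10 genes (RefSeq, GRCm38.p6) and searched on both strands in the 250 bases before the start. Those of Cxcl1 and Cxcl2, neighbors with very different RNA levels, and of Ccl20 and Cxcl10 are shown because all 4 hold a match to the NF-kB consensus, marked in capitals, where adjoining capitals can hold overlapping matches. The bases run 5′ to 3′ toward the gene, from chr5:90890995-90891240 (+) for Cxcl1, chr5:90903649-90903870 (+) for Cxcl2, chr1:83116516-83116765 (+) for Ccl20 and chr5:92348890-92349139 (-) for Cxcl10. Distances are counted from the RefSeq start, and the last 4 bases before it in Cxcl1 and 28 in Cxcl2 are not printed.
Cxcl1: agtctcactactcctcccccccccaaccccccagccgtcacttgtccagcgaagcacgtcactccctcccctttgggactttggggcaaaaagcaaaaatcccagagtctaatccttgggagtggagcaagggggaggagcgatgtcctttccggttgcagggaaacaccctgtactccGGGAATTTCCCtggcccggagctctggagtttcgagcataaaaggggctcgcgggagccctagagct
Cxcl2: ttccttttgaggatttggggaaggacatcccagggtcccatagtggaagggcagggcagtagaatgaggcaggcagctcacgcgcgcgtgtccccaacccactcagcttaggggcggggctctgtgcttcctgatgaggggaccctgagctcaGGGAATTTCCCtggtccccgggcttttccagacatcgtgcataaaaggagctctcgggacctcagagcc
Ccl20: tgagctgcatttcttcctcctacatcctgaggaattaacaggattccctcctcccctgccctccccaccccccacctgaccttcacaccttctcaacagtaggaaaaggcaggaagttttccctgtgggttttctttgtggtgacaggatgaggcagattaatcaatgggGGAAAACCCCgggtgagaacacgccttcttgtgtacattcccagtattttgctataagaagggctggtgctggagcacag
Cxcl10: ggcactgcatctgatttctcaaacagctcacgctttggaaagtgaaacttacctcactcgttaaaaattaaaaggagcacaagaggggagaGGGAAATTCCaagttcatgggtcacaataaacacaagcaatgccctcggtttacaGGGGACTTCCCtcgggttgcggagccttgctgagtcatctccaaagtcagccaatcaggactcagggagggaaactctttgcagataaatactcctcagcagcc

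Cxcl1 and Cxcl2 share the same 11 bases in capitals, which in Cxcl1 begin 71 and in Cxcl2 97 bases before the start. The match of Ccl20 begins 80 bases before the start, and Cxcl10 has matches that begin 159, 104 and 103 bases before it. Of 32817 promoter windows of this length, 7.25% hold the NF-kB consensus. The AP-1 motif TGANTCA was found in Cxcl10 and in 6.75% of all windows. A core of the interferon-stimulated response element, 2 copies of TTTC separated by 2 bases, was found in Cxcl10 and in 2.97% of all windows. The E-box CACGTG, the core of the motif bound by TFEB and TFE3, was found in 0 of the 6 and in 6.02% of all windows. Cxcl12 and Cx3cl1 held 0 matches to these 4 motifs, which says only that these letters do not occur there, and for Cx3cl1 171 of the 250 bases lie after the GENCODE start of the gene. A match is a description of the sequence and not a bound site. Ccl2, Ccl5, Ccl7 and Cxcl5 were not searched.

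Other genes of the chemokine system were taken from lists. The model called 6342 genes higher and 5598 lower with etoposide in Null MEFs (7656 and 4350 with library size alone in place of TMM), 6702 higher and 4757 lower in DKO MEFs (9351 and 2975), 5080 higher and 5183 lower in DKO against Null controls (3997 and 6473), 5612 higher and 5351 lower in DKO against Null MEFs after etoposide (5451 and 5477), and 4553 higher and 3757 lower for the interaction (5782 and 3110). Over all genes the median shifted with library size alone by 0.17, 0.27, -0.12, -0.02 and 0.10 on the log2 scale in these comparisons, and the changes given here are relative to TMM scaling. With DESeq2 size factors there were 4991 higher and 5866 lower for the genotypes after etoposide and 3862 and 4236 for the interaction. The direction with more calls thus depended on the scaling in these comparisons, and nothing is read from it. The medians with TMM were 0.07, 0.14, -0.02, 0.00 and 0.05. Adjusted p-values below are those of the quasi-likelihood test of edgeR, adjusted by Benjamini-Hochberg over 15220 genes. The lists were chosen with earlier results of these data known, and the genes named from them for large changes. Their p-values therefore describe these libraries and are not independent tests.

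Of 31 other chemokines 11 were tested, and 10 had at most 3 counts in every library. The control libraries alone would not have carried 1 of the 11, Cxcl17, past the expression filter, so nothing is read from its direction, and it was named after its values were seen. It is 1 of the 2 that rose in Null MEFs and 1 of the 2 with a called interaction. With etoposide 2 rose and 3 fell in Null MEFs (median 0.20), and 2 rose and 3 fell in DKO MEFs (median 0.08), while with library size alone 4 rose and 2 fell in Null MEFs and 5 rose and 3 fell in DKO MEFs. Ccl9, a macrophage chemokine, was measured at 3.92, 2.49 and 3.77 CPM in Null control and 0.891, 0.581 and 1.01 CPM in Null etoposide libraries, with a log2 fold change of -2.05 (standard error 0.21, edgeR adjusted p = 1.27e-07). In DKO MEFs its log2 fold change was -3.17 (standard error 0.21, edgeR adjusted p = 5.33e-10). In DKO against Null controls 5 were higher and 3 lower (median 0.65), and after etoposide 3 were higher and 3 lower (median 0.06). Cxcl16, the ligand of Cxcr6, was higher in DKO MEFs in controls, with a log2 fold change of 2.70 (standard error 0.25, edgeR adjusted p = 6.05e-08), and after etoposide (2.04, standard error 0.23, edgeR adjusted p = 3.88e-07). Its exons overlap Zmynd15 on the opposite strand, so its counts are uncertain. The interaction was called for 2 genes, both negative (median -0.36).

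Of 23 chemokine receptors 10 were tested, of which 8 had a mean under 1 CPM. The control libraries alone would not have carried 7 of the 10 past the expression filter, as with 2004 of all 15220 genes tested, so that a higher level after etoposide was a condition of testing them and nothing is read from their direction. With etoposide 9 rose and 1 fell in Null MEFs (median 3.11, or 2.69 with the 3 genes at 0 in a group set to the bound of 3 counts over the group), and 6 rose and 3 fell in DKO MEFs (median 3.88, or 3.24 with 4 such genes at their bound). Over all 3221 tested genes with a mean under 1 CPM, the median log2 fold change with etoposide was 1.97 in Null and 2.00 in DKO MEFs, against -0.08 and 0.02 for the 11999 genes above it. The receptors at or above 1 CPM were Ackr3 and Cxcr6. Ackr3 was measured at 16.1, 14.6 and 14.1 CPM in Null control, 2.45, 3.36 and 4.03 CPM in DKO control, 21.7, 22.8 and 21.6 CPM in Null etoposide and 0.931, 1.15 and 1.37 CPM in DKO etoposide libraries. It was the lower in DKO MEFs in each treatment, with log2 fold changes of -2.19 (standard error 0.13, edgeR adjusted p = 1.88e-10) and -4.22 (standard error 0.15, edgeR adjusted p = 1.97e-13). Cxcr6 was measured at 0.356, 0.323 and 0.371 CPM in Null control and 9.01, 9.31 and 11.9 CPM in DKO control libraries, a log2 fold change of 4.84 (standard error 0.19, edgeR adjusted p = 5.57e-13). The Null control libraries held only 29, 21 and 24 counts of it. Etoposide libraries had 0.635, 0.86 and 0.685 CPM in Null and 1.54, 1.53 and 1.86 CPM in DKO MEFs. There the log2 fold change of DKO against Null MEFs was 1.18 (standard error 0.18, edgeR adjusted p = 1.37e-05). In DKO against Null controls 1 receptor was higher and 1 lower (median -0.19, or -0.38 with 5 genes at their bound), after etoposide 1 was higher and 2 lower (median 0.13), and the interaction was called for 2, both negative. No median of the interaction is given for lists with genes at 0 in a group.

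Of 16 genes that process chemokines or retain them on heparan sulfate 15 were tested. With etoposide 3 rose and 10 fell in Null MEFs (median -0.38), and 2 rose and 12 fell in DKO MEFs (median -0.50). Ext1, which polymerizes heparan sulfate, was measured at 310.2, 294 and 310.1 CPM in Null control and 55.4, 56.3 and 53.5 CPM in Null etoposide libraries, with a log2 fold change of -2.47 (standard error 0.04, edgeR adjusted p = 1.19e-17), and of -3.29 (standard error 0.04, edgeR adjusted p = 1.13e-18) in DKO MEFs. Between control genotypes 9 were higher and 5 lower in DKO MEFs (median 0.29), and after etoposide 7 and 7 (median -0.08). Mmp3, a protease that can cleave chemokines, was higher in DKO MEFs with log2 fold changes of 1.56 (standard error 0.09, edgeR adjusted p = 6.12e-11) in controls and 2.05 (standard error 0.09, edgeR adjusted p = 2.72e-12) after etoposide. The interaction was positive for 6 and negative for 7 genes (median -0.06, or 0.05 with library size alone).

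All 18 NF-kB pathway genes were tested. With etoposide 2 rose and 13 fell in Null MEFs (median -0.36), or 5 and 10 with library size alone (median -0.19). In DKO MEFs 2 rose and 11 fell (median -0.20), where with library size alone 8 rose and 7 fell (median 0.07). Nfkb1, which encodes the p50 precursor, was measured at 384, 361 and 391 CPM in Null control and 86.6, 91.5 and 86.6 CPM in Null etoposide libraries, a log2 fold change of -2.10 (standard error 0.04, edgeR adjusted p = 5.32e-17). The inhibitor Nfkbie fell with log2 fold changes of -1.87 (standard error 0.04, edgeR adjusted p = 5.08e-16) in Null and -2.29 (standard error 0.05, edgeR adjusted p = 9.85e-17) in DKO MEFs. The inhibitor Nfkbia went the other way. It was at 128, 117 and 126 CPM in Null control and 204, 223 and 229 CPM in Null etoposide libraries. In DKO MEFs it was at 144, 142 and 143 CPM in control and 174, 180.3 and 179.8 CPM in etoposide libraries. In DKO against Null controls 6 were higher and 9 lower (median -0.09), or 3 and 11 with library size alone (median -0.21). After etoposide 6 were higher and 10 lower in DKO MEFs (median -0.14). Tnfaip3, a feedback inhibitor induced by NF-kB, was measured at 89.9, 84.3 and 82.4 CPM in Null control, 203, 198 and 174 CPM in DKO control, 79.8, 87.2 and 84.9 CPM in Null etoposide and 59.6, 58.3 and 59.4 CPM in DKO etoposide libraries. It was thus higher in DKO controls (log2 fold change 1.17, standard error 0.05, edgeR adjusted p = 5.21e-12) and lower after etoposide (-0.51, standard error 0.05, edgeR adjusted p = 2.19e-07). The interaction was positive for 6 and negative for 6 genes (median 0.05, or -0.01 with DESeq2 size factors).

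The 7 genes for decay of chemokine mRNA included Zfp36 and its relatives, which bind AU-rich elements. With etoposide 2 rose and 4 fell in Null MEFs (median -0.45), and 1 rose and 6 fell in DKO MEFs (median -0.76). Zfp36l1 rose in Null MEFs with a log2 fold change of 0.97 (standard error 0.04, edgeR adjusted p = 3.39e-12). Its exons overlap Gm26669 on the opposite strand. Zc3h12a, the RNase Regnase, fell in DKO MEFs with a log2 fold change of -1.60 (standard error 0.11, edgeR adjusted p = 1.21e-09). Between control genotypes 3 were higher and 3 lower in DKO MEFs (median 0.00, or -0.13 with 2 higher and 3 lower with library size alone), after etoposide 1 was higher and 4 lower (median -0.46), and the interaction was positive for 2 and negative for 4 (median -0.42).

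Of 18 inducing cytokines and receptors 16 were tested. With etoposide 4 rose and 10 fell in Null MEFs (median -0.31), and 2 rose and 9 fell in DKO MEFs (median -0.16), where with library size alone 8 rose and 5 fell (median 0.11). Il6 was measured at 0.602, 0.569 and 0.834 CPM in Null control and 1.96, 2.36 and 2.13 CPM in Null etoposide libraries, a log2 fold change of 1.69 (standard error 0.26, edgeR adjusted p = 1.37e-05). Il1rn, the interleukin-1 receptor antagonist, fell with log2 fold changes of -2.57 (standard error 0.10, edgeR adjusted p = 2.96e-13) in Null and -1.93 (standard error 0.09, edgeR adjusted p = 8.73e-12) in DKO MEFs. Among controls, DKO against Null, 10 were higher and 3 lower (median 0.27), or 5 and 4 with library size alone (median 0.15). After etoposide 8 were higher and 5 lower in DKO MEFs (median 0.37). The interaction was positive for 7 and negative for 4 (median 0.02, or -0.05 with DESeq2 size factors).

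All 19 interferon response genes were tested. With etoposide 11 rose and 4 fell in Null MEFs (median 0.32), and 11 rose and 6 fell in DKO MEFs (median 0.29). Gbp3, a guanylate-binding protein, rose with log2 fold changes of 1.82 (standard error 0.07, edgeR adjusted p = 1.13e-13) in Null and 1.40 (standard error 0.06, edgeR adjusted p = 4.07e-12) in DKO MEFs. In DKO against Null controls 17 were higher and 1 lower (median 0.61), and after etoposide 15 were higher and 2 lower (median 0.89). Stat2, a subunit of the factor that interferon activates, was measured at 22.4, 22.7 and 25.5 CPM in Null etoposide and 72.0, 78.2 and 70.5 CPM in DKO etoposide libraries, a log2 fold change of 1.65 (standard error 0.06, edgeR adjusted p = 1.18e-13). Mx1 was higher in DKO controls with a log2 fold change of 1.91 (standard error 0.12, edgeR adjusted p = 4.25e-10). The interaction was positive for 9 and negative for 6 genes (median 0.10).

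Marker lists were read in the same way. The control libraries alone would not have carried 2 of the 5 tested immune and 5 of the 5 tested endothelial markers past the filter. The same held for 2 of the 6 epithelial markers. Nothing is read from the direction of these markers, or from medians that include them, with etoposide, between the genotypes or for the interaction. Of the 10 fibroblast markers 0 rose and 8 fell with etoposide in Null MEFs (median -1.06), 1 rose and 9 fell in DKO MEFs (median -1.22), 9 were higher and 1 lower in DKO controls (median 0.90), and 8 were higher and 2 lower in DKO MEFs after etoposide (median 1.12). All 5 tested immune markers rose with etoposide in Null MEFs (median 3.04) and 4 in DKO MEFs (median 4.61, or 2.84 with 1 gene at its bound), from the low sums given above. All 5 tested endothelial markers rose in both genotypes (medians 4.18 and 3.72, the latter 3.33 with 1 gene at its bound), and of 6 epithelial markers 3 rose and 1 fell in Null MEFs (median 0.67) and 4 rose and 1 fell in DKO MEFs (median 1.68, or 1.60 with 1 gene at its bound). Among controls, DKO against Null, 1 immune marker was higher and 1 lower (median 0.10, or -0.02 with library size alone), 0 endothelial markers were higher and 1 lower (median -0.85, or -0.37 with 1 gene at its bound), and 1 epithelial marker was higher and 2 lower (median -0.62, or -1.23 with 2 genes at their bound). After etoposide 2 immune (median -0.68), 2 endothelial (median -0.89) and 4 epithelial markers (median -1.40) were lower in DKO MEFs and 0 were higher. The interaction was positive for 3 and negative for 3 fibroblast markers (median -0.04, or 0.06 with library size alone), for 1 and 2 immune, for 0 and 1 endothelial and for 1 and 1 epithelial markers.

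**Figure D4:**
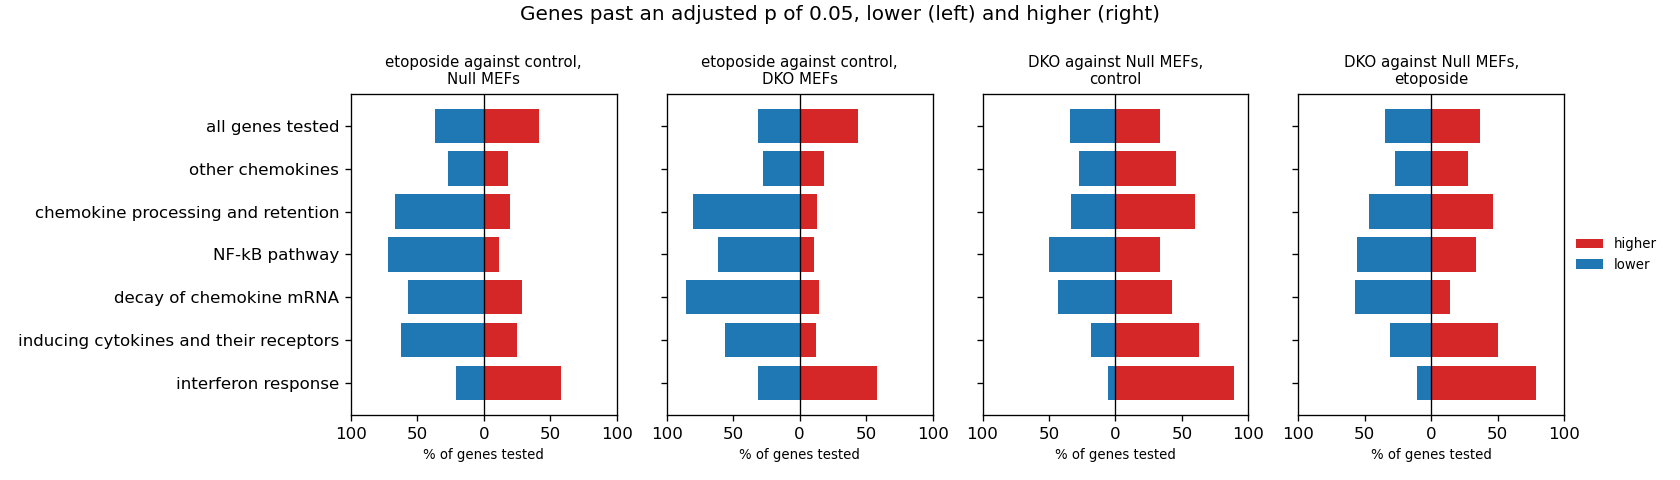
Percent of the tested genes of 6 lists (receptors not drawn) called higher (right, red) or lower (left, blue) at an adjusted p of 0.05 in 4 comparisons, beside all 15220 genes tested. Interferon response genes were higher in DKO controls in 17 of 19 cases, beside 5080 of all 15220 genes. NF-kB pathway genes fell with etoposide in Null MEFs in 13 of 18 cases, beside 5598 of all genes. With library size alone these were 15 of 19 and 10 of 18 cases, beside 6473 lower and 3997 higher among all genes in DKO controls and 4350 lower with etoposide in Null MEFs.

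Genes with a like pattern were sought among the 11999 tested genes whose mean reached 1 CPM, by Pearson correlation of log2 CPM over 12 libraries, which the differences between the 4 groups set. Those most like Cxcl5 included Klf6 (r = 0.9954) and Csf1 (r = 0.9950), the macrophage growth factor. Ptger4, a prostaglandin E receptor, was like Ccl2 (r = 0.9947), and Trib1 was like Cx3cl1 (r = 0.9911). The gene most like Cxcl10 was Rspo1 (r = 0.9759), and Ifit1, an interferon-induced gene, came at rank 3 (r = 0.9638). Atp6v0a2, a V-ATPase subunit, was like Ccl20 (r = 0.9967). Cenpe, a mitotic kinesin, was like Cxcl1 (r = 0.9928), and Hs6st2, a heparan sulfate sulfotransferase, was like Cxcl12 (r = 0.9977).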

How the data were processed

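RNA was measured in 12 libraries of 4 groups, and the authors deposited whole counts per gene without normalization. Stranded total RNA libraries had been prepared after removal of ribosomal RNA. The submitters' processing notes name HISAT2, featureCounts and mm10, whereas the methods of the study name HTSeq for the counting. Their versions and the strand setting are not given in the sources used here. The table listed 24421 genes by symbol, which took 53.4 to 63.1% of the reads of a library. Reads on no feature (20.2 to 27.3%), not unique (15.9 to 20.5%) or ambiguous were summary lines, and library sizes and tests excluded them.

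The computations used R 4.3.3 with edgeR 4.0.16 and Python 3.11.15. After filterByExpr (15220 genes) and TMM, glmQLFit and glmQLFTest (two-sided, Benjamini-Hochberg threshold 0.05) treated the 4 groups in 1 model, which was tested on simulated data. Replicate libraries differed by more than sampling noise (chi-square over degrees of freedom 11.1 to 23.0) and counted as separate samples. This difference does not show that they came from separate cultures. Alternatives were DESeq2 1.42.0, limma-trend (limma 3.58.1), DESeq2 size factors, library size alone, no filter, a stricter filter, a replicate block and omission of each library. Those for the lists, their genes, Tfeb and Tfe3 were added after seeing the data. The members and the lists (other chemokines, receptors, processing and retention, NF-kB pathway, mRNA decay, inducing cytokines, interferon response, and 4 lists of cell markers) were chosen with earlier results of these data known.

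Named genes are the members, Tfeb and Tfe3, and for each of 7 lists and each comparison up to 3 called genes with the largest absolute log2 fold change, a mean of 1 CPM or more and groups without overlap (for the interaction up to 2, whatever the overlap). For each member kept by the filter the 3 most correlated genes were eligible, and the text names those with a well-known role. Marker genes are named as a check of cell type, and Nfkbia and the genes near Ccl7 were chosen after their values were seen. Exon lengths are from GENCODE M21. Floors of 3 counts cover counting error only.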

Additional observations from a re-analysis of the deposited data

Results flagged for a closer look

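The libraries of 1 member, Cxcl1, separated in opposite directions with etoposide, with log2 fold changes of 0.59 in Null MEFs and -1.63 in DKO MEFs. The interaction was -2.22 (standard error 0.07) in the model, but no p is given and the difference counts as not tested, because the members were chosen from these data.

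For 35 of the 45 other named genes, not counting Nfkbia, the etoposide response differed between the genotypes. Of their interactions (DKO minus Null, log2) 23 were negative and 12 positive. The largest adjusted p was 0.0162 in the quasi-likelihood test of edgeR, adjusted by Benjamini-Hochberg. Of all genes tested, 54.6% were called for the interaction, 4553 positive and 3757 negative. The named genes were taken for large changes, in part for the interaction itself, so nothing is read from their number. The targeted genes had interactions of 0.49 (Tfeb) and 0.28 (Tfe3), and that of Tfeb was 0.33 and no longer called without DKO etoposide replicate 3. Among chemokines and receptors the values were -1.12 for Ccl9, -3.66 for Cxcr6 and -2.02 for Ackr3. Among genes of processing and retention they were negative for Sdc1 (-1.53), Mmp14 (-1.25), Ext1 (-0.82), Sdc4 (-0.48) and Mmp2 (-0.39), and positive for Mmp3 (0.49), Sdc2 (0.36) and Ndst1 (0.20). That of Ndst1 was not called with DESeq2 (0.13), DESeq2 size factors (0.14), the stricter filter (0.15) or without DKO etoposide replicate 2 (0.13). In the NF-kB pathway they were -1.67 for Tnfaip3, -1.44 for Nfkbiz, -0.42 for Nfkbie and -0.28 for Rela (-0.17 with library size alone), and 0.73 for Nfkb1. For mRNA decay they were -1.5 for Zfp36l1, -1.32 for Zfp36, -1.14 for Zc3h12a and -0.42 for Zfp36l2. Inducing cytokines and receptors gave -1.26 for Il6, -0.76 for Tnfrsf1b and -0.53 for Il6ra, and 0.99 for Il17ra, 0.64 for Il1rn and 0.51 for Ifngr1. Interferon response genes gave -0.85 for Irf1, -0.77 for Gbp2, -0.62 for Rsad2 and -0.42 for Gbp3, and 0.75 for Irf7, 0.74 for Oasl2 and 0.57 for Stat2. Exons of Zfp36, Zfp36l1, Zfp36l2, Il6ra, Irf1, Irf7 and Gbp2 overlap another gene, so their counts are uncertain.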

How the results depend on the processing

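For the members, 796 of 855 log2 fold changes under the alternatives moved by less than 1 SD of the replicates. Among these, the interaction of Ccl5 (-0.02) ranged from -0.18 to 0.14 and so lay on both sides of 0. Of the others, 58 moved by more with the direction kept, and that of Cxcl10 with etoposide in DKO MEFs (-0.10) became 0.17 with library size alone, which moved the median of all genes in that comparison by 0.27. For the named genes of the lists other than Nfkbia, with their called interactions, and for Tfeb and Tfe3, 2306 of 2318 values counted as the same. These kept their side of the threshold. They also kept their direction, except for values of Tfe3 in DKO against Null MEFs after etoposide that rounded to 0.0 with the sign changed. Movement was not scored for these genes, so this count and that of the members are not alike. With etoposide in DKO MEFs, Tnfrsf1b went from -0.75 to -0.48 and Tfe3 from -0.44 to -0.17 with library size alone, and both counted as the same. A further 11, of Ccl25, Il6, Ndst1 and Tfeb, kept the direction but lost the call. The value of Tfe3 in this comparison, not called at -0.01, ranged from -0.05 to 0.03 when 1 library was left out. It was 0.03 without DKO etoposide replicate 3 and was not called there either, and the cause was not tested. The number of genes called was within 1.5 times the reported one under each alternative, at 9817 to 13242 and 9515 to 12377 with etoposide in Null and DKO MEFs, 9195 to 10470 and 9483 to 11032 for DKO against Null MEFs in controls and after etoposide, and 7683 to 8892 for the interaction. The lowest came with the stricter filter, which tested fewer genes. With a replicate block the numbers were 11873, 11374, 10206, 10886 and 8196, and deviations of libraries with the same number correlated at -0.032 to 0.0429. Ordered per kilobase of the longest transcript, 2, 0, 4 and 3 members changed rank in Null control, DKO control, Null etoposide and DKO etoposide libraries. The direction with more calls was the other one under 9 of 19 alternatives for DKO against Null MEFs after etoposide (DESeq2, DESeq2 size factors, library size alone, no filter, and without DKO control replicate 1 or 2 or any 1 DKO etoposide library). It was the other one under 3 for the interaction (DESeq2, DESeq2 size factors and the stricter filter) and under 2 for DKO against Null controls (the stricter filter and without DKO control replicate 3). Cxcl2 and most receptors had low counts, which allow no firm statement.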
